A study of Mus musculus with 8 samples.

Results

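The genes examined here belong to the NRF2 antioxidant response, and they were chosen by symbol: Nfe2l2, Keap1, Nqo1, Hmox1, Gclc, Gclm, Txnrd1, Gsr, Gpx4 and Srxn1. All 10 were found among the 23861 genes of the hair follicle stem cell (HFSC) table and all 10 among the 16231 genes of the epidermal stem cell (EpdSC) table. In HFSCs 9 of the 10 passed the filter on low counts, and Hmox1 did not. The data were bulk RNA-seq of cells sorted from mouse dorsal skin, with 2 libraries in each of 4 groups and 8 in all. HFSCs were sorted as CD34+CD49f+Sca-1- and EpdSCs as CD34-CD49f+Sca-1+. By the study's methods, the WT groups came from C57BL/6J mice matched by hair cycle. The Msx2-KO groups came from mice homozygous for a germline Msx2 allele with a neo cassette upstream of exon 2. The sample labels read Msx2-KO, whereas the names under which the counts were deposited read cKO. By the sample labels the mice were 6 months old, except those of the WT HFSC group at 2 months, so that age and genotype differed together in HFSCs. The labels name no animals for the replicates, so the p-values below measure the spread between libraries, which may be technical.

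NRF2, encoded by Nfe2l2, is a transcription factor that switches on defences against oxidants and electrophiles. In unstressed cells KEAP1 holds NRF2 in the cytoplasm and hands it to the proteasome. Electrophiles modify cysteines of KEAP1, NRF2 escapes and binds the antioxidant response element (ARE) of its target genes with a small MAF partner. In the epidermis this pathway is known for protection from ultraviolet light and chemicals and for effects on barrier proteins. The activity of NRF2 is set mostly at the protein level, so the mRNA of Nfe2l2 is a limited readout of it. Among the targets, NQO1 reduces quinones, HMOX1 opens the heme ring, GCLC and GCLM form the rate-limiting enzyme of glutathione synthesis, TXNRD1 and GSR use NADPH to reduce thioredoxin and glutathione, and SRXN1 repairs overoxidized peroxiredoxins. GPX4 reduces lipid peroxides with glutathione and guards cells against ferroptosis.

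The ARE core, TGACNNNGC, was searched for on both strands in RefSeq promoters of GRCm38.p6, each reaching from 250 bases before to 50 bases after a transcription start, because these letters are what the pathway's factor reads. Promoters were given for 7 of the 10 genes. Those of Hmox1, Gclc and Gsr were missing. The core was found in 4 of these 7 genes, where 14% of the 27025 genes in the table had it, and in 4 of the 12 promoters of the 7 genes, where 12.4% of all 32851 promoters of the same length had it. The stretches below read 5′ to 3′ on the strand of the gene, with the core in capitals. In Gclm, Srxn1 and Txnrd1 the core lies on the other strand and is printed as its reverse complement.
Nfe2l2, chr2:75704885-75704913, minus strand: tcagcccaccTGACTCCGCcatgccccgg
Gclm, chr3:122245413-122245441, plus strand: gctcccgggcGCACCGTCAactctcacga
Txnrd1, chr10:82859104-82859132, plus strand: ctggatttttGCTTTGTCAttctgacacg
Srxn1, chr2:152105542-152105570, plus strand: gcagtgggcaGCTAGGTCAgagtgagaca
The core of Srxn1 lies just after the start site, and those of the other 3 genes lie before it. The promoters of Nqo1, Keap1 and Gpx4 hold no such letters within this window. A match is a description of the sequence and does not show binding.

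Before the genes themselves, some properties of the libraries bear on every value. HFSC totals ran from 3132954 to 11016652 estimated counts, and EpdSC totals, recovered from the scaled values, from 15213635 to 21092719. The HFSC libraries labelled Msx2-KO were the deepest of the HFSC libraries but had the fewest genes with a count, 11414 and 14268 against 22488 and 19667 in WT. In the same libraries mitochondrial transcripts and ribosomal RNA took 57.0% and 62.5% of the counts, against 11.2% and 41.4% in WT. Replicates correlated at 0.929 in WT and 0.581 in Msx2-KO HFSCs, and at 0.952 and 0.844 in EpdSCs, over genes on the log2 scale. The targeted gene, Msx2, had 53 and 7 counts in WT against 40 and 18 in Msx2-KO HFSCs, and normalized values of 58.5 and 85.4 against 150 and 22.2 in EpdSCs, so its counts did not separate the genotypes and each direction below rests on the labels. Counts per gene do not separate the exons on either side of the cassette. The names of the data columns show numbering series that fall on whole groups. Within each cell type the series and the genotype therefore cannot be told apart. Across the cell types, Msx2-KO HFSCs and WT EpdSCs share a consecutive series, and the other groups lie outside it. What the series stand for is not given.

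The sorted populations were checked against their defining markers. Cd34, the surface marker of the bulge, had 2755 and 2448 normalized counts in WT HFSCs and 994 and 806 in Msx2-KO HFSCs. The 9 HFSC markers summed to between 35763 and 36816 in WT and between 19675 and 21082 in Msx2-KO. Krt15 made up most of these sums, at 26371 and 24945 in WT against 12441 and 15523 in Msx2-KO. Both Msx2-KO libraries lay below WT in 7 of the 9 markers, where 33.5% of all genes tested did. Tcf7l1 lay above WT and Foxc1 overlapped. The 10 suprabasal markers measured summed to 1101 and 1231 in WT HFSCs and to 4790 and 18230 in Msx2-KO HFSCs, and the 6 sebaceous markers to 432 and 526 against 7307 and 5809. In EpdSCs the direction was the other way for the suprabasal list, at 307149 and 221331 in WT against 107458 and 87754 in Msx2-KO. Itgb4, an integrin of basal cells, stood at 7432 and 11067 in WT EpdSCs and at 183 and 1148 in Msx2-KO EpdSCs, whereas Krt14, Krt15, Itga6 and Ly6a were higher in both Msx2-KO libraries. The part of these shifts in the results on antioxidant genes was not tested. In bulk RNA, fewer cells of a type and less RNA per cell cannot be told apart.

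In each cell type Msx2-KO was compared with WT to ask how loss of Msx2 touches the sorted stem cells. Calls required a fold change over 2 and a p adjusted by Benjamini-Hochberg under 0.05, with edgeR's quasi-likelihood test for HFSC counts and limma on log2(value + 1) for EpdSC values. None of the 9 antioxidant genes tested in HFSCs was called, and 0% of the 14422 HFSC genes tested were. None of the 10 was called in EpdSCs, where 9.35% of the 16231 genes tested were. At an unadjusted p under 0.05 there were 3 in HFSCs (Nqo1, Srxn1 and Gclc, all lower in Msx2-KO), where 18.1% of all genes were past it, 12.8% lower and 5.3% higher. In EpdSCs there were 4 (Nqo1, Srxn1 and Keap1 higher, Hmox1 lower), where 35.3% were past it, 12.2% higher and 23.1% lower. Both shares rest on few genes. The groups did not overlap in 5 of the 9 genes tested in HFSCs, 2 above and 3 below WT, where 51.1% of all genes did not overlap. In EpdSCs they did not overlap in 9 of 10, 6 above and 3 below, where 72.3% did not. What set Nqo1 and Srxn1 apart was the contrast between the cell types, since both were at 0 in Msx2-KO HFSCs and 9.44-fold and 8.78-fold above WT in Msx2-KO EpdSCs. With other tools on the HFSC counts, DESeq2 called 690 genes and none of the 9, and limma-trend called 1407 genes, Nqo1 and Srxn1 among them (adjusted p = 0.0327 for both). An exact two-sided permutation test on 1 gene could not go below p = 0.333 with groups of 2.

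**Figure D1:**
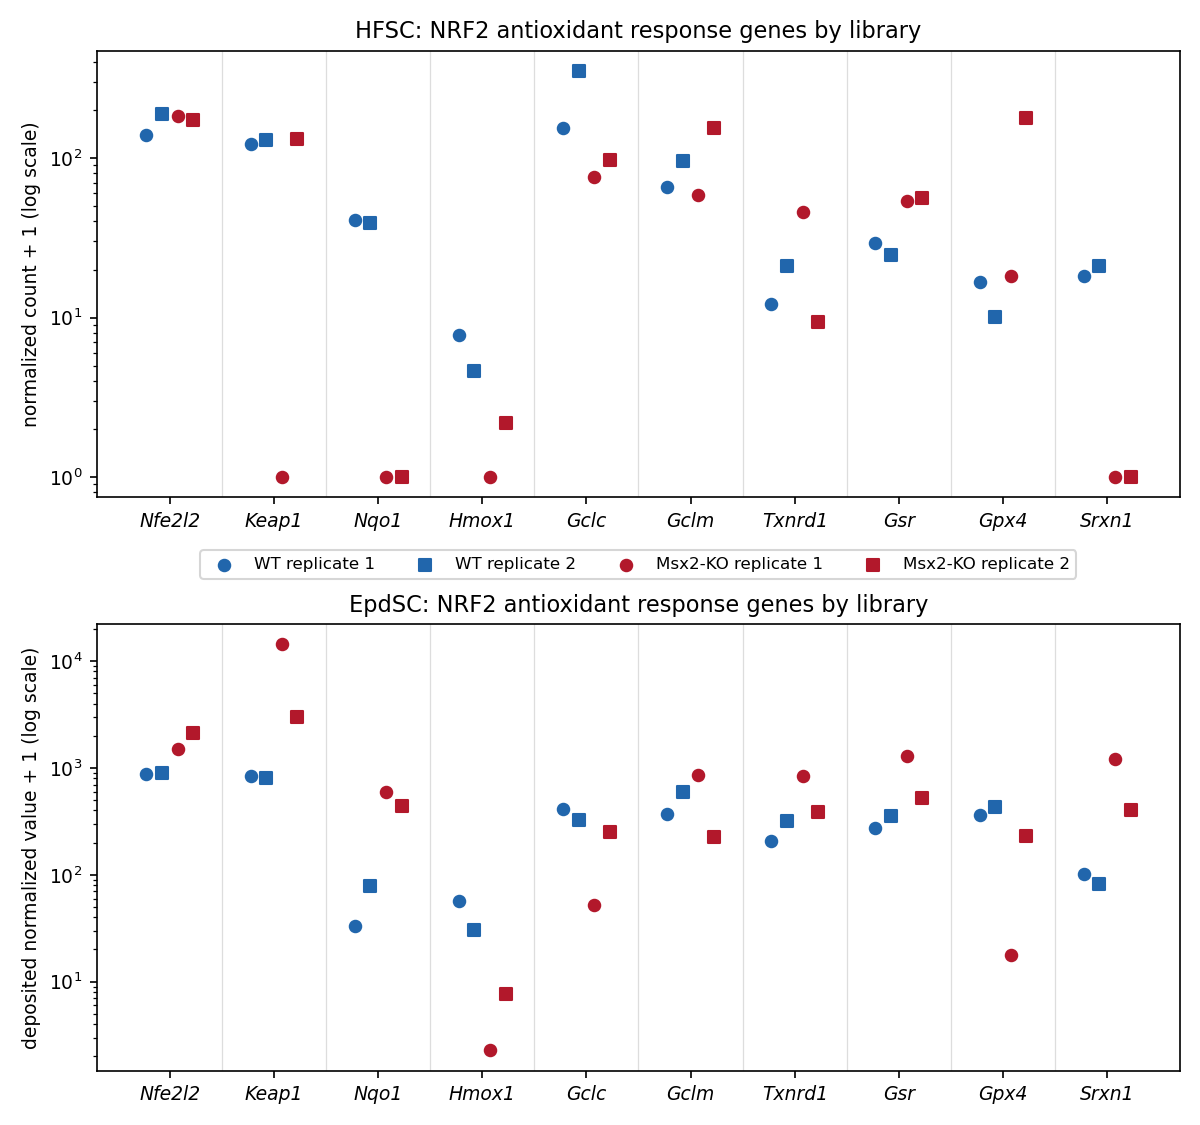
Normalized value plus 1 of each NRF2 response gene in every library (y axis, log scale; x axis, gene), for HFSCs in the upper panel and EpdSCs in the lower; blue points are WT, red points Msx2-KO, circles replicate 1 and squares replicate 2. Nqo1 and Srxn1 are at 0 counts in both Msx2-KO HFSC libraries and above both WT libraries in EpdSCs.

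Nfe2l2 lies on chromosome 2 from 75675513 to 75704641 of GRCm38, on the minus strand. In HFSCs its normalized counts were 138.5 and 188.6 in WT against 182.7 and 172.7 in those labelled Msx2-KO. The groups overlapped, with 164 ± 35.4 (SD, n = 2) in WT against 178 ± 7.10 (SD, n = 2) in Msx2-KO. The log2 fold change was 0.12 (standard error, SE, 0.38, adjusted p = 0.945 with edgeR). In EpdSCs the WT libraries were nearly equal, at 882.8 and 888.7, and the Msx2-KO libraries stood higher, at 1495 and 2108. This log2 fold change of 1.00 (SE 0.49) did not pass the test (adjusted p = 0.222 with limma). On the same scale the median over all EpdSC genes tested was -0.64. Scaled by library totals, the HFSC value turned to -0.67, where the median of all HFSC genes moved from -0.14 to -1.002.

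Keap1, on chromosome 9 from 21229730 to 21239361 on the minus strand, had uneven Msx2-KO replicates in both cell types. Its HFSC normalized counts were 121.3 and 128.8 in WT against 0 and 129.8 in Msx2-KO. Msx2-KO replicate 1 was thus the sole HFSC library without a Keap1 count, while replicate 2 matched WT. Among genes with at least 50 counts in both WT HFSC libraries, 4.59% were at 0 in Msx2-KO replicate 1. Its log2 fold change was -0.96 (SE 2.21, adjusted p = 0.923 with edgeR), and it became 0.03 without Msx2-KO replicate 1 and -10.20 without replicate 2. In EpdSCs the normalized values were 835.7 and 804.4 in WT against 14338 and 3007 in Msx2-KO, and both Msx2-KO libraries lay above both WT libraries. The ratio of the means was 10.6-fold, and the log2 fold change, with a SE of 0.94, did not pass (unadjusted p = 0.0351, adjusted p = 0.120 with limma). Msx2-KO replicate 1 therefore held the lowest Keap1 value in HFSCs and the highest in EpdSCs. These are separate libraries that share only a replicate number. An antisense gene, Gm16754, shares 510 of the 4693 exon bases of Keap1. Whether counting used strand is not given in the sources used here, so reads of the pair may not be separated.

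Nqo1, the quinone reductase widely used as a readout of NRF2, lies on chromosome 8 from 107388225 to 107403206 on the minus strand. In HFSCs the estimated counts were 53 and 21 in WT against 0 and 0 in those labelled Msx2-KO. As normalized counts these were 39.7 and 38.1 against 0 and 0, so that the groups did not overlap. The WT mean was 14.4-fold above a floor of 3 counts per Msx2-KO library. That floor covers counting error only, so it does not bound the difference. The edgeR test gave an unadjusted p = 0.0155 and an adjusted p = 0.143, which did not pass. Among genes with at least 10 counts in both WT HFSC libraries, 5.61% were at 0 in both Msx2-KO libraries, so a loss of this kind was not particular to Nqo1.

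In EpdSCs Nqo1 moved the other way. Its normalized values were 32.5 and 76.8 in WT against 592 and 439 in Msx2-KO, and every Msx2-KO library lay above every WT library. Mean values were 54.7 ± 31.3 (SD, n = 2) and 516 ± 108 (SD, n = 2), a 9.44-fold ratio. The log2 fold change was 3.32 (SE 0.65, unadjusted p = 0.00807, adjusted p = 0.0625 with limma). With a pseudocount of 10 in place of 1 the adjusted p was 0.0435 and the gene was called. Over the 8 alternative settings, run with limma or edgeR, the adjusted p ran from 0.0435 to 0.0927. With a library left out the log2 fold change ran from 2.72 to 3.93.

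Hmox1, on chromosome 8 from 75093621 to 75100589 on the plus strand, encodes the inducible heme oxygenase and had few counts in HFSCs. It had 9 and 2 counts there in WT against 0 and 1 in Msx2-KO, too few for a test. In EpdSCs its normalized values were 56.3 and 29.4 in WT against 1.27 and 6.74 in Msx2-KO. Both Msx2-KO libraries lay below both WT libraries in EpdSCs, by 10.7-fold in the means. The log2 fold change was -3.31 (SE 0.85, unadjusted p = 0.0196, adjusted p = 0.0913 with limma). HMOX1 is strongly expressed by macrophages, and the 4 macrophage and Langerhans cell markers of 12 that the EpdSC table holds summed to 518 and 66.2 in WT against 20.2 and 8.87 in Msx2-KO. Cd74, which presents antigen with MHC class II, made up most of the sum in WT replicate 1, at 374. Csf1r, a macrophage receptor, overlapped between the groups, at 23.9 and 13.1 in WT against 17.7 and 5.50 in Msx2-KO. Of the 4, Cd207, the defining Langerhans marker, was at 20.6 and 2.85 in WT and at 0 in both Msx2-KO libraries. The sort required CD49f and Sca-1, and the study's methods name no gate against immune cells. The part of those cells in the Hmox1 value was not tested.

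The genes of the enzyme that starts glutathione synthesis were placed differently. Gclc, the catalytic subunit (chromosome 9 from 77754535 to 77794485, plus strand), had HFSC normalized counts of 153.5 and 350 in WT against 75.2 and 96.5 in Msx2-KO. Both Msx2-KO libraries lay below both WT libraries, with a log2 fold change of -1.55 (SE 0.57, unadjusted p = 0.0498, adjusted p = 0.275 with edgeR). In EpdSCs Gclc was again lower in both Msx2-KO libraries, at 50.9 and 251 against 414 and 323. There the log2 fold change was -1.68 (SE 0.95, adjusted p = 0.268 with limma). Groups placed below WT in both cell types, without overlap, were found in 15.3% of the 13151 genes tested in both. Gclc was the only one of the 9 genes tested in both cell types with this pattern.

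Gclm encodes the modifier subunit and lies on chromosome 3 from 122245557 to 122270732 on the plus strand. It had HFSC normalized counts of 65.2 and 94.3 in WT against 57.4 and 152 in Msx2-KO. The EpdSC values were 371 and 595 in WT against 857 and 227 in Msx2-KO. In both cell types the Msx2-KO libraries lay on either side of the WT libraries. The log2 fold changes, 0.40 (SE 0.75) in HFSCs and -0.09 (SE 0.87) in EpdSCs, were each smaller than their errors. Their signs turned with the setting, to -0.45 in HFSCs with library totals and to 0.11 in EpdSCs with edgeR on recovered counts. Exons of Gclm overlap 296 bases of an opposite-strand transcript and 244 bases of a pseudogene out of 6291.

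Both NADPH-dependent reductases had higher values in both Msx2-KO EpdSC libraries than in WT, and neither passed the test. Gsr, glutathione reductase (chromosome 8 from 33652523 to 33698163, plus strand), had 28.5 and 23.6 normalized counts in WT HFSCs and 52.6 and 54.8 in Msx2-KO HFSCs. In EpdSCs it had 275 and 353 in WT against 1296 and 526 in Msx2-KO. Gsr was the one gene of the set with both Msx2-KO libraries above both WT libraries in both cell types, a placement found in 5.68% of the 13151 genes. The log2 fold changes were 1.04 (SE 0.98, adjusted p = 0.739 with edgeR) and 1.40 (SE 0.67, adjusted p = 0.214 with limma), so that neither passed.

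Txnrd1, thioredoxin reductase of the cytosol, is a selenoprotein encoded on chromosome 10 from 82833951 to 82897712 on the plus strand. In HFSCs the counts were low and uneven, with normalized counts of 11.2 and 19.9 in WT against 44.6 and 8.34 in Msx2-KO. Its HFSC log2 fold change, 0.77 (SE 1.38), turned to -0.87 without Msx2-KO replicate 1. In EpdSCs the normalized values were 206 and 317 in WT against 837 and 390 in Msx2-KO, without overlap. That difference, a log2 fold change of 1.16 (SE 0.65), did not pass the test (adjusted p = 0.264 with limma).

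Gpx4, the selenoprotein that reduces lipid peroxides, lies on chromosome 10 from 80047166 to 80056439 on the plus strand. In HFSCs its normalized counts were 15.7 and 9.07 in WT against 17.1 and 177 in Msx2-KO. Both Msx2-KO libraries lay above WT, but replicate 1 stood beside WT replicate 1 and the distance came from replicate 2. The log2 fold change of 2.94 (SE 1.48, adjusted p = 0.440 with edgeR) fell to 0.40 without Msx2-KO replicate 2. In EpdSCs the values were 363 and 428 in WT against 16.9 and 231 in Msx2-KO, both below WT. Here replicate 1 was the distant library, and the log2 fold change of -2.62 (SE 1.42, adjusted p = 0.252 with limma) was -0.77 without it. A processed pseudogene, Gpx4-ps2, may share reads with Gpx4, and the HFSC estimates of Gpx4 were not whole.

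Srxn1, sulfiredoxin, lies on chromosome 2 from 152105516 to 152111376 on the plus strand and followed the same pattern as Nqo1. In HFSCs the estimated counts were 23 and 11 in WT against 0 and 0 in Msx2-KO, or 17.2 and 19.9 against 0 and 0 as normalized counts. The WT mean was 6.88-fold above the same floor of 3 counts per Msx2-KO library, which covers counting error only. The edgeR test gave an unadjusted p = 0.00903 and an adjusted p = 0.143. In EpdSCs the normalized values were 102 and 81.6 in WT against 1211 and 399 in Msx2-KO, so that Msx2-KO lay above WT in both libraries, by 8.78-fold in the means. The EpdSC log2 fold change was 2.92 (SE 0.75, unadjusted p = 0.0192, adjusted p = 0.0904 with limma).

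The difference between the 2 genotype effects was tested directly with limma, over the 15337 genes in both tables, as the Msx2-KO minus WT difference in EpdSCs minus that in HFSCs on the log2(value + 1) scale. On this scale Nqo1 differed by -5.32 between the genotypes in HFSCs and by 3.32 in EpdSCs, and the gap of 8.64 (SE 0.86) passed (adjusted p = 0.0142 with limma). Srxn1 differed by -4.29 in HFSCs and 2.92 in EpdSCs, a gap of 7.21 (SE 0.95, adjusted p = 0.0201 with limma). These were 2 of the 10 genes, against 4.45% of all genes in this test. The HFSC difference holds genotype and age together, with WT at 2 months and Msx2-KO at 6. Genotype and age therefore cannot be told apart in the gaps. Msx2-KO HFSCs and WT EpdSCs, whose columns share a numbering series, enter the gap with the same sign. A shift common to that series cannot be told apart from a gap either. Lower in HFSCs and higher in EpdSCs without overlap were 8.58% of the 13151 genes. With values under 3 counts raised to 3 counts, the gaps were 6.79 for Nqo1 and 5.36 for Srxn1 and both passed (adjusted p = 0.0186 and 0.0367 with limma). The size of the gaps depended on the constant added before the log, and it was 11.96 and 10.47 with a pseudocount of 0.1 and 5.39 and 4.32 with a pseudocount of 10, where both also passed.

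Both calls depended on every WT library. Without either WT library of either cell type neither gene passed, with adjusted p between 0.0964 and 0.139 in limma, while the gaps stayed between 7.05 and 9.25. Leaving out any Msx2-KO library left both called. Keap1 passed too without HFSC Msx2-KO replicate 2, with a gap of 9.98 (adjusted p = 0.0125 with limma), but that arm was then a single library at 0 counts, which is assumed to vary like the other groups. The Msx2-KO HFSC values of both genes were all 0, so that group added no spread to the test.

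**Figure D2:**
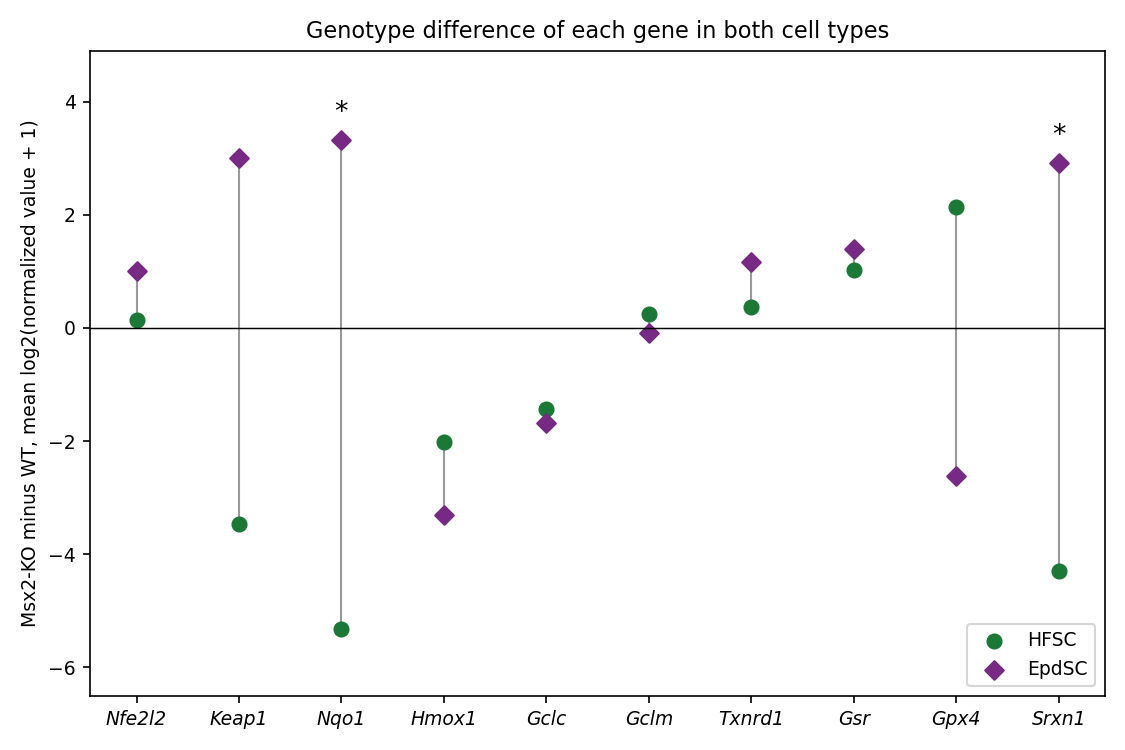
Difference between the Msx2-KO and WT means of log2(normalized value + 1) for each gene (y axis; x axis, gene), in HFSCs (green circles) and EpdSCs (purple diamonds), joined by a line whose length is the gap between the effects. In HFSCs age differed together with genotype. Stars mark Nqo1 and Srxn1, whose gaps of 8.64 and 7.21 passed the limma test; the gap of Keap1, 6.46, did not.

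Other gaps were within their errors or failed the correction. Keap1 had a gap of 6.46 (SE 3.05, adjusted p = 0.263 with limma). Gpx4 was the only gene with the opposite placement, above WT in HFSCs and below WT in EpdSCs, which 7.97% of the genes shared. Its gap was -4.75 (SE 2.13, adjusted p = 0.243 with limma). For Nfe2l2, Hmox1, Gclc, Gclm, Txnrd1 and Gsr the gaps ran from -1.30 to 0.87 and their adjusted p from 0.504 to 0.921. Within each cell type the log2 fold changes of the members ran in both directions, from -8.41 to 2.94 in HFSCs and from -3.31 to 3.32 in EpdSCs. Their median was 0.12 over the 9 tested in HFSCs, where it was -0.14 over all genes. In EpdSCs the median was 1.08 over the 10, where it was -0.64 over all genes.

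Levels were also set side by side over the 4 groups, as counts per kilobase of merged exons per 1000000 counts of the genes in both tables, with mitochondrial and ribosomal RNA left out. The tables were normalized separately, so these levels are a description without a test. In WT HFSCs the highest levels were those of Gclc, at 21.6 ± 9.94 (SD, n = 2), and Nfe2l2, at 14.2 ± 1.58 (SD, n = 2), which overlapped. Txnrd1, at 0.718 ± 0.212 (SD, n = 2), and Hmox1, at 1.01 ± 0.524 (SD, n = 2), were lowest and overlapped too. In WT EpdSCs Nfe2l2 stood at 19.5 ± 0.279 (SD, n = 2) and Gpx4 at 19.2 ± 2.43 (SD, n = 2), above Keap1 at 14.6 ± 0.255 (SD, n = 2).

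**Figure D3:**
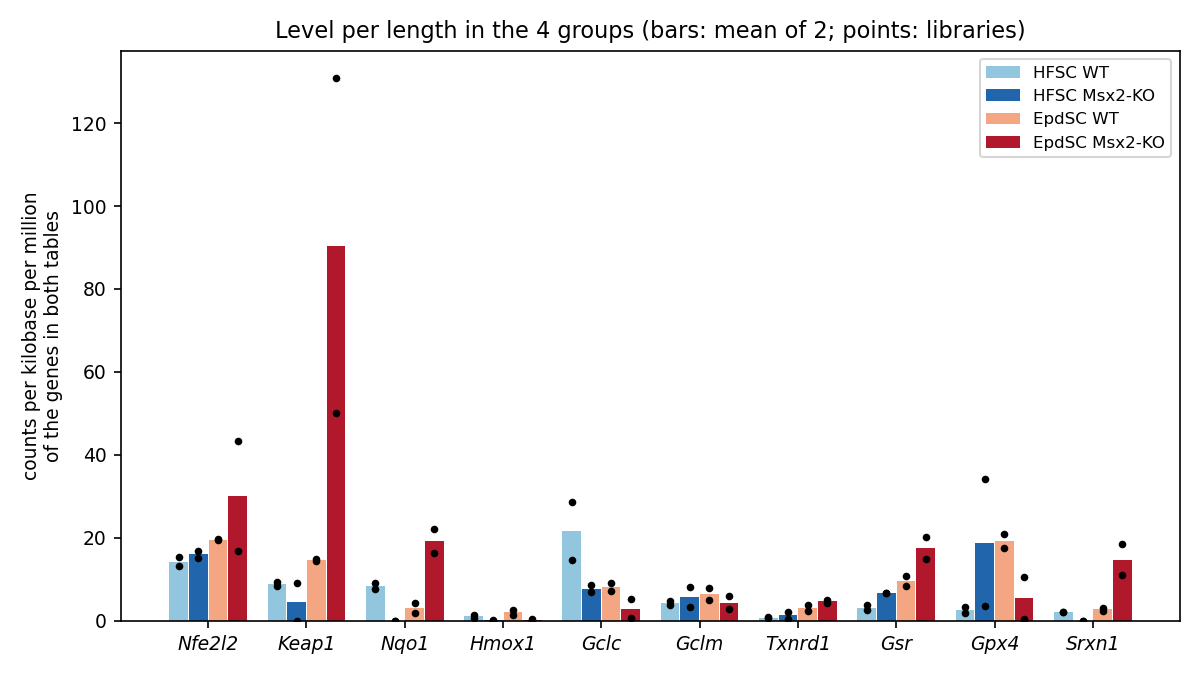
Counts per kilobase of exon per 1000000 counts of the genes in both tables (y axis) for each gene (x axis) in the 4 groups; bars are the mean of 2 libraries and points the libraries. Keap1 in Msx2-KO EpdSCs has the widest pair of points, at 50.04 and 131.

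The order of the groups differed between genes. For Nqo1 all 4 groups were apart, with Msx2-KO EpdSCs at 16.3 and 22.1, WT HFSCs at 9.16 and 7.56, WT EpdSCs at 1.74 and 4.17 and Msx2-KO HFSCs at 0. Srxn1 was ordered as Msx2-KO EpdSCs at 18.4 and 11.1, WT EpdSCs at 3.004 and 2.44, WT HFSCs at 2.19 and 2.18 and Msx2-KO HFSCs at 0, again without overlap between neighbours. Gsr fell into the order Msx2-KO EpdSCs, WT EpdSCs, Msx2-KO HFSCs and WT HFSCs, with means of 17.5, 9.56, 6.64 and 3.17 and no overlap.
Keap1 and Txnrd1 were highest in Msx2-KO EpdSCs and then in WT EpdSCs, and their HFSC groups overlapped. Hmox1 was highest in WT EpdSCs, with means of 2.05 there and 1.01 in WT HFSCs, and its Msx2-KO groups overlapped at 0.166 and 0.113. Gclc was highest in WT HFSCs, and its WT EpdSC and Msx2-KO HFSC groups overlapped at means of 8.19 and 7.75. For Gclm and Gpx4 every neighbouring pair of groups overlapped. For Nfe2l2 the Msx2-KO EpdSC libraries, at 16.9 and 43.4, spanned the WT EpdSC level, so that the separation seen on the deposited scale was absent on this one.

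The genes whose profile over the 8 libraries was most like that of Nfe2l2 were Arih2, Nab1, Alyref, AW549877 and Csnk2a2. Likeness was the root mean square difference between log2 profiles centred on the WT mean of each table, and it was 0.149 for Arih2 and 0.211 for Csnk2a2, among 5243 genes with a mean of at least 100 in both tables. Gclc, the only other member at that level, ranked 3812 with 1.63. At any level, Gsr (0.69) and Txnrd1 (0.72) were the members nearest to Nfe2l2, and Nqo1 (2.99) was the farthest.

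Wider redox genes were taken from lists of the pathway's neighbours. In HFSCs none of them was called. The rule for naming genes gave Mgst1, a membrane glutathione transferase, which had 39.7 and 32.6 normalized counts in WT against 665 and 275 in Msx2-KO (log2 fold change 3.69, adjusted p = 0.143 with edgeR). Mgst1 is also 1 of the 6 sebaceous gland markers measured. Their sum was higher in the same Msx2-KO libraries, where Scd1 made up most of it. The part of that shift in the Mgst1 value was not tested. Alox12e, an epidermal lipoxygenase, and Cbr1, a carbonyl reductase, had log2 fold changes of 3.38 and 3.21 with the same adjusted p. All 3 were called by DESeq2. In EpdSCs Mgst1 also lay above WT, at 354 and 183 in Msx2-KO against 45.5 and 47.4 (adjusted p = 0.0807 with limma). Alox12e and Cbr1 lay below WT in EpdSCs. On the lower side were Sesn1, Glo1 and Ftl1, with log2 fold changes of -1.84, -1.56 and -1.40 and adjusted p from 0.289 to 0.688 in edgeR. The 12 genes of NADPH supply had a median of 1.03, with both Msx2-KO libraries above WT in 7 and below in 2. The 21 genes of NRF2 regulators and partners had a median of -0.20, with 3 above and 7 below. Over all HFSC genes tested the median was -0.14, with 17.5% above and 33.5% below.

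In EpdSCs 4 genes of these lists were called, all higher in Msx2-KO. Over all genes 9.35% were called, 1.57% higher and 7.78% lower. Prdx1, the peroxiredoxin of the cytosol whose overoxidized form SRXN1 repairs, had normalized values of 2438 and 2199 in WT against 113366 and 37939 in Msx2-KO. Its log2 fold change was 4.82 (SE 0.73, adjusted p = 0.0429 with limma). Prdx4, the peroxiredoxin of the secretory pathway, stood at 43.3 and 63.5 in WT against 1152 and 1612 in Msx2-KO, with a log2 fold change of 4.67 (SE 0.53, adjusted p = 0.0281 with limma). These were the 2 calls among 21 thioredoxin and peroxiredoxin genes. There was 1 call among 26 detoxification genes and 1 among 9 partners of GPX4 in ferroptosis. None fell on the 29 glutathione genes, 21 regulators and partners, 12 genes of NADPH supply or 14 of heme and iron handling. The 22 selenoprotein genes and the 4 superoxide dismutase and catalase genes had none either. Some genes are in more than 1 list.
Abcc3, an exporter of glucuronide conjugates and other organic anions, rose from 29.2 and 30.3 to 252 and 377 (log2 fold change 3.33, adjusted p = 0.0423 with limma). Ncoa4, the cargo receptor that sends ferritin for degradation, rose from 467 and 441 to 7398 and 5126 (log2 fold change 3.76, adjusted p = 0.0343 with limma). All 4 calls were lost without either WT library (adjusted p of 0.274 to 0.398) and with edgeR on recovered counts (0.0604 to 0.0716). Prdx4 and Abcc3 were also lost with equal library totals (adjusted p = 0.0511 and 0.0800), and Prdx1 and Abcc3 with a pseudocount of 0.1 (0.0646 and 0.0565). In HFSCs Prdx1 also lay above WT, at 592 and 380 normalized counts in Msx2-KO against 118 and 138 (adjusted p = 0.143 with edgeR). Abcc3 and Ncoa4 lay below WT in HFSCs, and Prdx4 overlapped.

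Gstm4, a cytosolic glutathione transferase, had a log2 fold change of 4.01 in EpdSCs (adjusted p = 0.0554 with limma) and missed the threshold. The lowest log2 fold changes among non-overlapping genes with a mean of at least 100 were those of Oplah, Aldh2 and Ugt1a6a. The first, Oplah, which recycles oxoproline for glutathione synthesis, had 1356 and 1155 in WT against 0 and 158 in Msx2-KO. Aldh2, an aldehyde dehydrogenase of mitochondria, had 1659 and 1647 against 5.09 and 639, and Ugt1a6a, a glucuronosyltransferase, had 197 and 184 against 0 and 85.2. None of these 3 passed (adjusted p from 0.173 to 0.253 with limma), and in each Msx2-KO replicate 1 was far below replicate 2. Over the lists, the medians ran from -0.81 for the 26 detoxification genes to 0.94 for the 9 partners of GPX4 in ferroptosis. Thioredoxin and peroxiredoxin genes had a median of 0.42, with Msx2-KO above WT in 11 of 21 and below in 3. Glutathione genes had a median of -0.14, with 11 above and 8 below of 29. Over all EpdSC genes tested 27.8% lay above and 44.5% below.

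**Figure D4:**
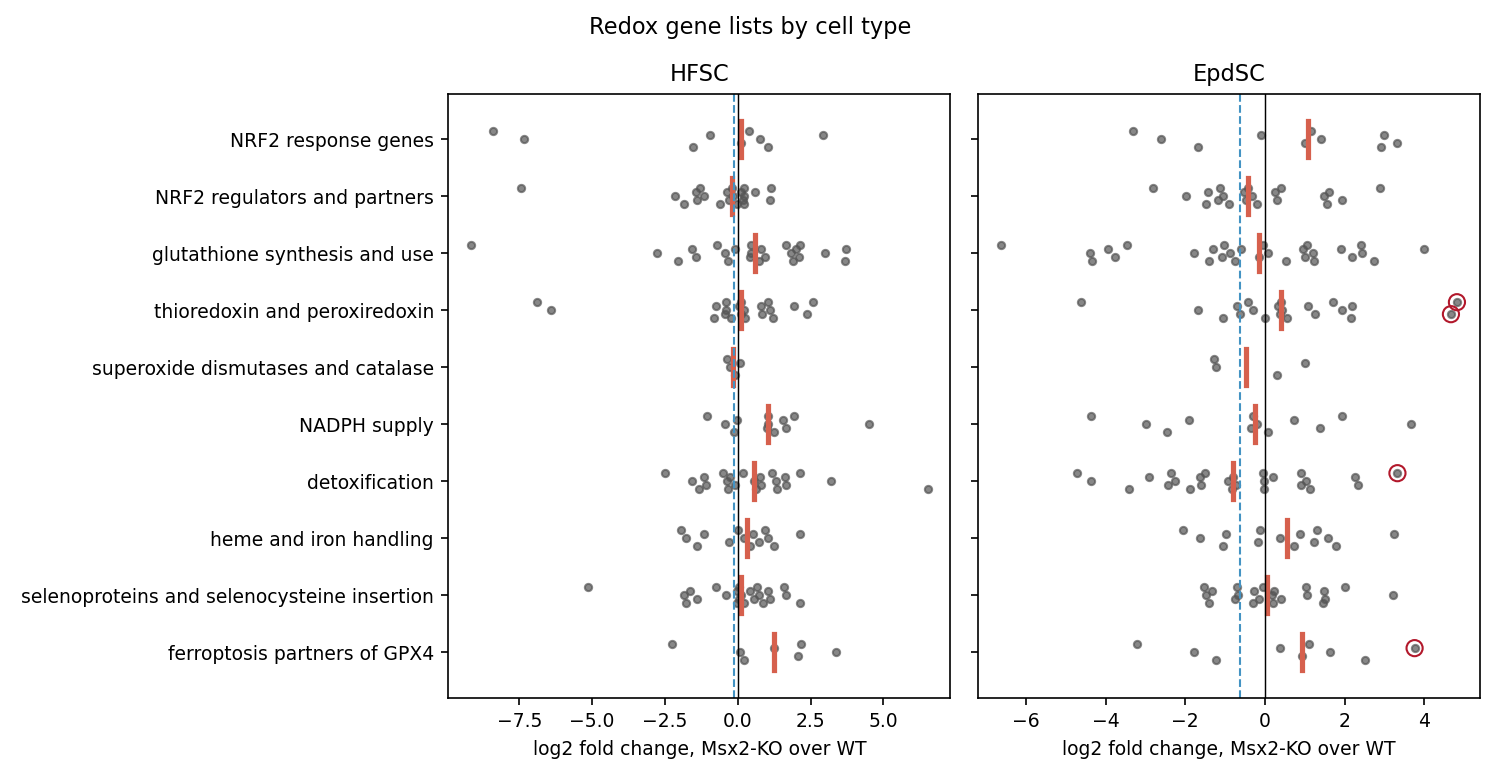
Log2 fold change of Msx2-KO over WT (x axis) for each tested gene of the redox lists (y axis) in HFSCs (left) and EpdSCs (right); points are genes, thick bars list medians, dashed lines the median of all genes and circles called genes. The 4 circles, Prdx1, Prdx4, Abcc3 and Ncoa4, are all in EpdSCs and above 0.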

How the data were processed

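Bulk RNA-seq of 4 HFSC and 4 EpdSC libraries was used. Per the study's methods and the submitters' processing notes, stranded libraries of total RNA were made by a sequencing company and their reads aligned to GRCm38/mm10 with STAR 2.7.3a in Partek with GENCODE annotation. The HFSC table deposited by the authors holds estimated counts, not normalized. For EpdSCs they deposited a normalized signal, estimated counts divided by a factor per library. A single count was worth 1.08 and 0.948 in the WT libraries, 1.27 and 0.674 in those labelled Msx2-KO, and 72.7% to 81.3% of values under 100 were whole multiples of it within 0.02. The authors' deposited comparisons (p-values, FDR, ratio, log2 ratio, fold-change score and fitted means) were not used. No data column was left without a sample (0).

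HFSC counts were rounded, scaled by TMM to 5610068.5 counts and tested with edgeR 4.0.16. Its filter on low counts kept 14422 genes. For EpdSCs, limma 3.58.1 was run on log2(value + 1) without a filter. The gap between genotype effects used limma on both tables. The standard error in edgeR was the fold change over the square root of F. Tests were run in R 4.3.3 and the figures in Python 3.11.15 with matplotlib 3.10.9. The main tests, DESeq2 and limma-trend were also run on simulated data. The simulations used dispersions below the 0.823 fitted for HFSCs and left the other settings out. Counting precision covers counting error only. Exon lengths came from a GENCODE annotation of GRCm38, and promoters from RefSeq (GRCm38.p6). The genes, lists and tests were chosen with earlier results of these data known. Named neighbours were every called list gene and, for HFSCs and EpdSCs separately, the top 3 rises and top 3 falls among genes without overlap and with a mean of 100 or more, plus the 5 genes most like Nfe2l2 and Msx2. Alternatives were DESeq2 1.42.0, limma-trend, other scalings, filters and pseudocounts, edgeR on recovered EpdSC counts, a replicate block and each library left out. For the gap between effects, the floor of 3 counts, the restriction to genes past the HFSC filter and the libraries left out were added after seeing the data.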

Additional observations from a re-analysis of the deposited data

Results flagged for a closer look

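The genotype effects of 3 genes in the 2 cell types are singled out here, 2 by a test and 1 by the placement of its libraries. In HFSCs these effects hold genotype and age together. The difference between the effects also cannot be told apart from the numbering series shared by Msx2-KO HFSCs and WT EpdSCs. Nqo1 had a log2 effect 8.64 higher in EpdSCs than in HFSCs and Srxn1 one 7.21 higher, and both differences passed the limma test over all shared genes. The sizes depend on the constant added before the log, since both genes are at 0 in Msx2-KO HFSCs. That group therefore added no spread to the test. Both calls were lost when any WT library was left out. Gpx4 was singled out because every library labelled Msx2-KO lay above WT in HFSCs and below WT in EpdSCs. This placement was shared by 7.97% of the 13151 genes tested in both. In HFSCs it rested on a near tie, at 17.1 normalized counts in Msx2-KO replicate 1 against 15.7 in WT replicate 1. The test of the Gpx4 difference, -4.75, did not pass (adjusted p = 0.243 with limma).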

How the results depend on the processing

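HFSC calls over all genes numbered 0 with edgeR's quasi-likelihood test (2614 at an unadjusted p under 0.05), 690 with DESeq2, 1407 with limma-trend, 51 with library totals, 2 with at least 10 counts in every library and 132 to 9272 with a library left out. Of the antioxidant genes, limma-trend called 2 (Nqo1 and Srxn1) and a left-out library gave 0 to 4. In EpdSCs edgeR on recovered counts called 0 genes in place of 1518 (5180 at an unadjusted p under 0.05), and a left-out library gave 0 to 10376. The median of all EpdSC genes moved from -0.64 to -0.88 with equal totals. In EpdSCs a pseudocount of 10 called 1 antioxidant gene and a left-out library gave 0 to 7. For the gap between effects, a left-out library gave 0 to 3 calls among the antioxidant genes. Same-numbered libraries deviated with correlations of -0.055 in HFSCs and -0.0225 in EpdSCs, so the replicate numbers pair nothing. With the replicate number as a block, 231 HFSC genes were called, no antioxidant gene was called in either cell type, and the calls on the gap fell to 0 (adjusted p = 0.130 for Nqo1 and 0.132 for Srxn1 with limma), while among the neighbours Abcc3 and Ncoa4 were lost in EpdSCs and Mgst1, Alox12e and Cbr1 gained in HFSCs. Directions turned as follows. In HFSCs library totals gave -0.67 for Nfe2l2 and -0.45 for Gclm. With a library left out the HFSC values ran from -0.11 to 0.27 for Nfe2l2, from -10.20 to 0.032 for Keap1, from -0.46 to 0.93 for Gclm and from -0.87 to 1.58 for Txnrd1. In EpdSCs Gclm was 0.11 with edgeR and -1.05 to 0.86 with a library left out. Gaps turned to 0.078 for Hmox1 with a pseudocount of 0.1 and to 0.32 for Gclc and 0.20 for Gclm with equal totals. With a library left out they ran from -1.39 to 0.89 for Gclc, from -1.30 to 0.61 for Gclm, from -0.35 to 1.94 for Txnrd1 and from -0.27 to 1.03 for Gsr. The cause of these changes was not tested. A fold change of an antioxidant gene kept its direction and side of the threshold in 86.9% of the recomputed values, a gap in 85.6% and a named neighbour's fold change in 69%, whereas 54% of the recomputed counts and medians moved. Nqo1 and Srxn1 drop out of the HFSC test with at least 10 counts in every library, and DESeq2 gave no adjusted p for Srxn1. HFSC values of Hmox1, Srxn1 and Txnrd1 rest on few counts.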
